A study of Mus musculus with 16 samples.

Results

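Sterol and fatty acid synthesis genes were followed as a fixed set of 33 genes, found by symbol among the 22440 genes of each deposited table. Of these, 19 belong to the sterol branch (enzymes from acetyl-CoA to cholesterol and the sterol carrier Stard4), 9 to the fatty acid branch, and 5 regulate both. All 33 symbols were in the tables, and 32 reached at least 1 FPKM (fragments per transcript length and sequencing depth, the authors' measure of transcript level) in some library. The remaining gene, Hmgcs1, which joins acetyl-CoA units at the start of the mevalonate pathway, was listed at 0 in all 4 libraries. Its row carries a locus on an unplaced contig of chromosome 13, so nothing is said of its level.

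The RNA came from primary neurons dissociated from the cortex of Swiss-Webster mice at embryonic day 16 and kept in neurobasal medium with B27 supplement. ETOP is the culture given etoposide, a drug that traps type II topoisomerases on broken DNA, at 5 µM for a time the labels do not give. CTRL is the culture whose values stand beside ETOP in the authors' deposited comparison, and its title names no treatment. NMDA is the culture given NMDA, an agonist of a class of glutamate receptor, which the labels give for most experiments as 50 µM for 10 min with 10 min of recovery. CTRL2, the numbered further control, is the library set beside NMDA. Each group has 1 library, so the differences below have no replicate check, and a condition could not be tested. The intervals given are exact 95% intervals made from approximate fragment numbers, and counting error is all they cover. The other 12 samples of the series, chromatin immunoprecipitations and their inputs, were not analysed here.

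Cells build cholesterol from acetyl-CoA through mevalonate, isoprenoid units and squalene, and build fatty acids from the same precursor. Both branches are switched on by the SREBP transcription factors, which Scap escorts out of the endoplasmic reticulum when membrane sterol is low and which the Insig proteins hold back when it is high. SREBP-2 acts mainly on sterol genes and SREBP-1 mainly on fatty acid genes. The brain makes its own cholesterol, and in it glial cells are known as strong producers.

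The FPKM of 1 fragment on a 1 kb transcript was near 0.0800 in ETOP, 0.0705 in CTRL, 0.0557 in NMDA and 0.0522 in CTRL2, read from the steps between low values. Genes reaching 1 FPKM numbered 9836 in ETOP, 10459 in CTRL, 12775 in NMDA and 12886 in CTRL2. The libraries lie on different FPKM scales. Over genes at FPKM of at least 1 in both libraries, the median ratio was 0.762 for ETOP over CTRL, 1.02 for NMDA over CTRL2 and 2.95 for CTRL2 over CTRL. Ratios and folds below were therefore scaled so that the median gene has a ratio of 1, and a scaled ratio says how a gene stood relative to that gene. FPKM is per length, so levels of different genes may be set side by side within a library. Neuron markers were present throughout, with Tubb3, a neuronal tubulin, at 101 FPKM in ETOP, 209 in CTRL, 653 in NMDA and 606 in CTRL2.

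Scd2, the main stearoyl-CoA desaturase of brain, had the highest level of the set in every library, at 40.4 FPKM in ETOP, 151 in CTRL, 473 in NMDA and 447 in CTRL2. Fdps, which makes farnesyl diphosphate, had the highest level of the sterol branch in every library, at 37.2 FPKM in ETOP, 87.0 in CTRL, 212 in NMDA and 193 in CTRL2. The median over the 32 genes was 9.50 FPKM in ETOP, 20.5 in CTRL, 55.9 in NMDA and 53.3 in CTRL2. The lowest values were 0.982 FPKM for Srebf1 in ETOP and 2.97 for Insig2 in CTRL, and Ebp, the sterol isomerase, was lowest in NMDA and CTRL2 at 8.51 and 8.75 FPKM.

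**Figure D1:**
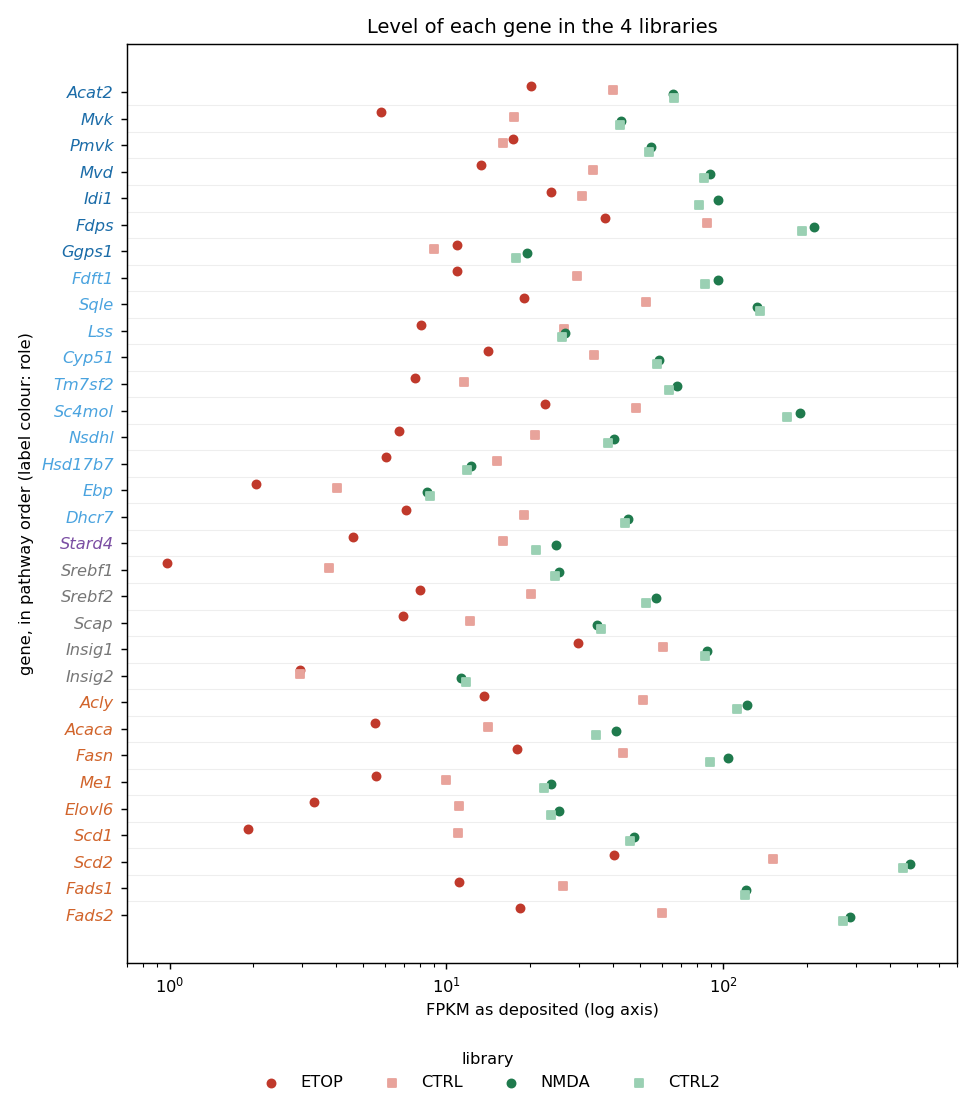
FPKM as deposited (log axis) of the 32 genes above 0, in pathway order from the top, in the ETOP, CTRL, NMDA and CTRL2 libraries (1 point per library, no error bars). NMDA and CTRL2 points nearly coincide for most genes, and most ETOP points lie left of CTRL, with Pmvk, Ggps1 and Insig2 as exceptions.

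Promoters of these genes were searched for letters that SREBP and its partners are known to bind, because the genes are known to be switched on together. RefSeq promoters (build GRCm38.p6, 250 bases before to 50 after the start) were found for 26 of the 33 genes, and not for Fdps, Fdft1, Sqle, Stard4, Scd1, Scd2 and Fads1. The sterol response letters TCACNCCAC, on either strand, were in 1 of the 26 genes (3.85%), Hmgcs1, against 1.44% of all 27025 genes with a promoter. Exact matches alone were counted, so a sterol response site with other letters would be missed. The letters CCAAT, on either strand, the core bound by NF-Y, were in 21 of the 26 (80.8%), against 41.1% of all genes, and at least 3 matches were in 8 of the 26 (30.8%), against 3.88%. GGGCGG, an Sp1 core, was in 21 of the 26 (80.8%), against 38.2% of all genes, and CACGTG, an E-box, in 4 (15.4%), against 8.09%. These shares describe letters in a window and show no binding. All genes here means those with a RefSeq promoter, expressed in these cultures or not, and a gene with several promoters took its highest count. Shares among expressed genes were not counted, so whether the differences are particular to this set was not tested. The promoters of 5 genes are printed 5′ to 3′ with TCACNCCAC and CCAAT, on either strand, in capitals, so that a CCAAT of the other strand reads ATTGG. Their coordinates are those of GRCm38.p6, not of the mm9 build of the deposited loci. Hmgcs1 is shown for the sterol response letters, Mvk and Nsdhl for their 5 and 4 CCAAT matches, Fasn for the fatty acid branch and Ggps1 because it has 3 matches and was not lower in ETOP. In Fasn, 2 of the 3 matches overlap on opposite strands.
Hmgcs1 (chr13:119690101-119690400, plus strand): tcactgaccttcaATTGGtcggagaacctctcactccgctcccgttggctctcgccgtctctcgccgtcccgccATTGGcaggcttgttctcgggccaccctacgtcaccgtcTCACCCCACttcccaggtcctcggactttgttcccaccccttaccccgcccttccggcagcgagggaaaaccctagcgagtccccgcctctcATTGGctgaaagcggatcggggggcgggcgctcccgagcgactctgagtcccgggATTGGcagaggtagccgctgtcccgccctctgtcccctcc
Mvk (chr5:114444019-114444318, plus strand): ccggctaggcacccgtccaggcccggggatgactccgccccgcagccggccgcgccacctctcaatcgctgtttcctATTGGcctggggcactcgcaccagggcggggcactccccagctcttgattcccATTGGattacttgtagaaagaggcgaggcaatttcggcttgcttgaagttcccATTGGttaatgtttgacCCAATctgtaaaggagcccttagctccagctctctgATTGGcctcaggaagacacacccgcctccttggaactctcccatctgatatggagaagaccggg
Ggps1 (chr13:14063439-14063738, minus strand): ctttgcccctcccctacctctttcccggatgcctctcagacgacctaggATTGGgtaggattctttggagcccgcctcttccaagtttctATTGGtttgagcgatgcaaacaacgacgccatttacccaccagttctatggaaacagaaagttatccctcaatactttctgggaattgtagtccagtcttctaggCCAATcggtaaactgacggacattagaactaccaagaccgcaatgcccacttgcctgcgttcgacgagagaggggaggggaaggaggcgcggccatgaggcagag
Nsdhl (chrX:72918271-72918570, plus strand): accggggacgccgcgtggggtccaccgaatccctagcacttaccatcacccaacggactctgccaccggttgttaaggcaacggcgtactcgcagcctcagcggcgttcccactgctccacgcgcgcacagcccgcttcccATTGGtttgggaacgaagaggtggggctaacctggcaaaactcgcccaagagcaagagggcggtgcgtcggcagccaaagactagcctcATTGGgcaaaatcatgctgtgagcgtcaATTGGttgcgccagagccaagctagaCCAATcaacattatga
Fasn (chr11:120824498-120824797, minus strand): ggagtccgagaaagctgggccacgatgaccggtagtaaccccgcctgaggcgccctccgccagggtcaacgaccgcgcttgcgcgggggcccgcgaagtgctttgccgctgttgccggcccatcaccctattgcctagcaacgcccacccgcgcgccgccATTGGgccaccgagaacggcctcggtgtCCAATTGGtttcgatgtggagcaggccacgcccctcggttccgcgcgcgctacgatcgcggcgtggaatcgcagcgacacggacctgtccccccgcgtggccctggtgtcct

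ETOP against CTRL asks what trapping topoisomerase does to transcripts. Most genes of both branches were lower in ETOP, with a lower median for the fatty acid enzymes than for the sterol branch, while Pmvk, Idi1, Ggps1 and Insig2 were not. Folds are log2((scaled FPKM + 1)/(control FPKM + 1)) for genes at FPKM of at least 1 in either library, a scale that understates low genes. By this measure 28 of 32 genes lay below 0, where 52.2% of all 10681 genes compared did. At least 1.5-fold lower were 23 of the 32, against 11.2% of all genes, and at least 2-fold lower were 11, against 2.26%. At least 1.5-fold higher was 1, Ggps1, against 9.38%, and none was at least 2-fold higher, against 1.57%. The median log2 fold was -1.18 over the fatty acid enzymes, -0.86 over the sterol branch, -0.61 over the regulators and -0.02 over all genes. The authors' deposited table listed 15 of the 32 as lower, against 6.28% of the genes compared, and none as higher, against 0.0936%.

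Of the mevalonate enzymes, 4 of the 7 above 0 FPKM were lower and the median log2 fold was -0.57. Mvk, the mevalonate kinase, had 5.78 FPKM in ETOP, against 17.5 in CTRL, a scaled ratio of 0.434 (interval 0.353 to 0.533). Mvd, which makes isopentenyl diphosphate, had 13.3 FPKM in ETOP, against 33.7 in CTRL, at 0.517 (0.451 to 0.591). Fdps had a scaled ratio of 0.562 (0.509 to 0.618). Acat2, the thiolase that opens the pathway, stood at 20.2 FPKM in ETOP, against 39.9 in CTRL, at 0.663 (0.599 to 0.732). These 4 intervals lie below 1. The other 3 enzymes of this stretch went the other way or did not differ. Pmvk, the kinase that follows Mvk, had 17.4 FPKM in ETOP, against 16.02 in CTRL, a scaled ratio of 1.43 (1.20 to 1.70). Ggps1, which makes geranylgeranyl diphosphate on the branch that leads away from sterols, had 10.9 FPKM in ETOP, against 8.99 in CTRL, at 1.59 (1.35 to 1.87). Idi1, the isomerase, had 23.8 FPKM in ETOP, against 31.0 in CTRL, and an interval that spans 1 (1.01, 0.922 to 1.10). Exons of Ggps1 overlap those of Arid4b on the opposite strand, and no source used here gives strand use in counting, so its value is uncertain.

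All 10 enzymes from squalene to cholesterol were below 0, with a median log2 fold of -0.91. Lss, which folds squalene epoxide into the first sterol, had 8.11 FPKM in ETOP, against 26.5 in CTRL, a scaled ratio of 0.402 (0.362 to 0.445). Nsdhl, a decarboxylating sterol dehydrogenase, had 6.72 FPKM in ETOP, against 20.9 in CTRL, at 0.423 (0.356 to 0.499). Sqle, the squalene epoxidase and a controlled step of the pathway, had 19.0 FPKM in ETOP, against 52.6 in CTRL, at 0.475 (0.434 to 0.519). Each of these 3 was at least 2-fold lower by log2 fold. Fdft1, the squalene synthase, had a scaled ratio of 0.486 (0.433 to 0.546) and Dhcr7, the last reductase of one route to cholesterol, 0.490 (0.423 to 0.566), at 10.9 and 7.11 FPKM in ETOP, against 29.5 and 19.1 in CTRL. The log2 folds of Fdft1 and Dhcr7, which add 1 FPKM to each value, were -0.99 and -0.96, just short of 2-fold. Hsd17b7 stood at 0.520, Cyp51, the sterol demethylase, at 0.543 and Sc4mol, the methyl oxidase now named Msmo1, at 0.619. Tm7sf2, a sterol reductase, was at 7.67 FPKM in ETOP, against 11.6 in CTRL, with an interval that spans 1 (0.871, 0.705 to 1.08), and Ebp rested on about 45 fragments in ETOP and 99 in CTRL (0.669, 0.465 to 0.973). Exons of Fdft1 and Lss overlap genes on the opposite strand and those of Tm7sf2 a gene on the same strand, so these 3 values are uncertain. Stard4, which carries cholesterol between membranes, had 4.58 FPKM in ETOP, against 16.02 in CTRL, a scaled ratio of 0.375 (0.329 to 0.427), the lowest of the sterol branch against CTRL.

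Among the regulators, the 2 SREBP genes and Insig1 were lower and Insig2 was not. Srebf1, which encodes SREBP-1, had 0.982 FPKM in ETOP, against 3.77 in CTRL, a scaled ratio of 0.342 (0.250 to 0.465). Srebf2, which encodes SREBP-2, had 8.04 FPKM in ETOP, against 20.2 in CTRL, at 0.521 (0.470 to 0.577), and was the regulator that the authors' deposited table listed. Insig1, itself an SREBP target, had 29.8 FPKM in ETOP, against 60.3 in CTRL, at 0.649 (0.601 to 0.699), and Scap had 6.98, against 12.2, at 0.751 (0.660 to 0.852). Insig2, which does the same work as Insig1 but is known to answer other signals, had 2.97 FPKM in both libraries, and its scaled ratio of 1.31 has an interval that spans 1 (0.989 to 1.73). The level of Insig1 over that of Insig2 was 10.0 in ETOP and 20.3 in CTRL. Exons of Srebf1 and Scap overlap genes on the opposite strand.

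All 9 fatty acid enzymes were lower, 8 of them at least 1.5-fold and 5 at least 2-fold. Scd1, a stearoyl-CoA desaturase, had 1.92 FPKM in ETOP, against 11.0 in CTRL, a scaled ratio of 0.228 (0.186 to 0.278), the lowest of the set, and 0.150% of all genes compared had a lower log2 fold. Scd2, which lies near it on chromosome 19, had 40.4 FPKM in ETOP, against 151 in CTRL, at 0.351 (0.337 to 0.366). Acly, which makes cytosolic acetyl-CoA from citrate and so feeds both branches, had 13.6 FPKM in ETOP, against 51.0 in CTRL, at 0.350 (0.323 to 0.379). The 3 intervals do not reach 0.5. The elongase Elovl6 had 3.32 FPKM in ETOP, against 11.1 in CTRL, at 0.392 (0.339 to 0.452). Fads2, the delta-6 desaturase, had 18.4 FPKM in ETOP, against 60.2 in CTRL, at 0.402 (0.356 to 0.452). Acaca, which makes malonyl-CoA, had 5.50 FPKM in ETOP, against 14.1 in CTRL, at 0.512 (0.468 to 0.560). Fasn, the fatty acid synthase, had 18.0 FPKM in ETOP, against 43.3 in CTRL, at 0.547 (0.521 to 0.575), so the enzyme that assembles the chain stood above the desaturases Scd1, Scd2 and Fads2. Fads1, the delta-5 desaturase, was at 0.553 (0.497 to 0.614), and Me1, a source of NADPH, was the least lower at 0.733 (0.624 to 0.861), with 5.59 FPKM in ETOP, against 10.0 in CTRL. Scd2 shares part of its exons with an unnamed gene model on the same strand, and Acaca and Me1 overlap models on the opposite strand.

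Scd1 (chromosome 19, 44468940 to 44482199, mm9) and Scd2 (44368166 to 44381352) lie near each other, as do Fads1 (10257378 to 10271362) and Fads2 (10138654 to 10175993). The pairs encode related proteins and their levels differed in each library. Scd2 over Scd1 was 21.1 in ETOP, 13.7 in CTRL, 9.99 in NMDA and 9.70 in CTRL2. Fads2 over Fads1 was 1.66 in ETOP, 2.28 in CTRL, 2.37 in NMDA and 2.25 in CTRL2. Near-identical stretches between paralogs can split reads, which was not tested here.

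**Figure D2:**
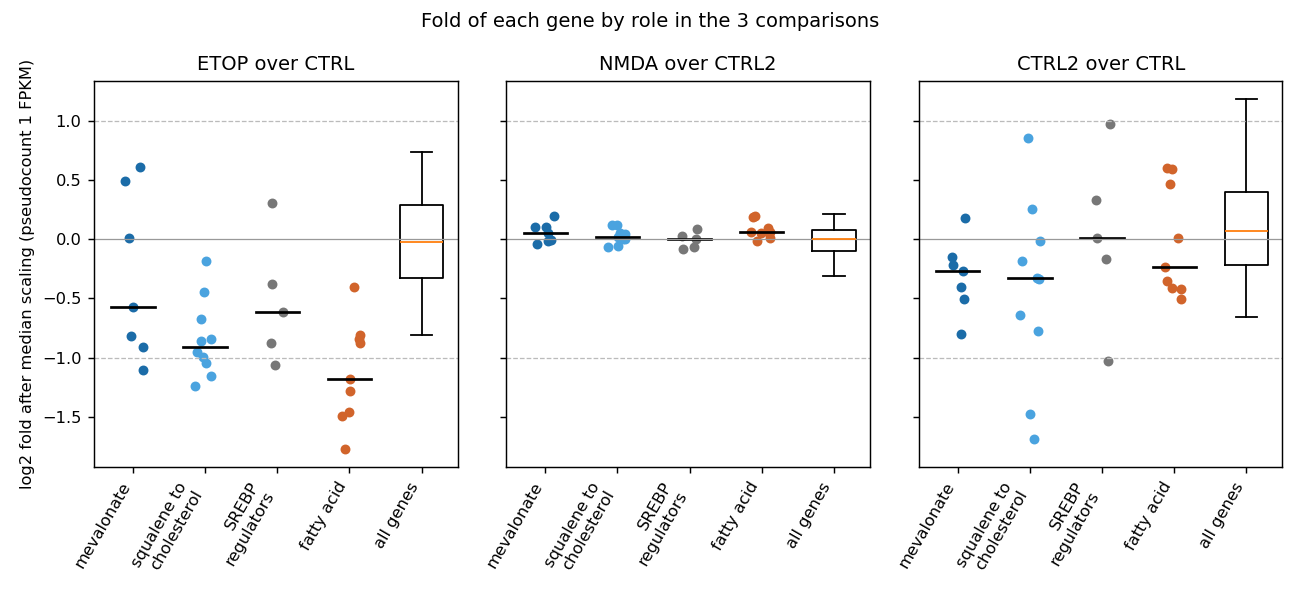
Log2 fold after median scaling of each gene (points, with a bar at the median of its role) and of all genes compared (box: quartiles and median, whiskers: 5th and 95th percentiles) for ETOP over CTRL, NMDA over CTRL2 and CTRL2 over CTRL. Stard4 is left out, dashed lines mark 2-fold, and the fatty acid enzyme median of -1.18 in ETOP over CTRL is the lowest of the panels.

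The sterol branch stood 0.32 above the fatty acid branch on the log2 scale in ETOP over CTRL (medians of -0.86 and -1.18). Taken from the ends of the genes' counting intervals the difference runs from -0.04 to 0.68, which spans 0. The ranges of single genes overlapped, from -1.28 for Stard4 to 0.61 for Ggps1 and from -1.78 for Scd1 to -0.40 for Me1. Genes of one branch are not replicates, so this difference has no test.

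With the other control the median of the sterol branch lay closer to that of all genes, and single genes of both branches moved. Against CTRL2, the scaled median log2 fold of ETOP was -0.29 over the sterol branch and -1.03 over the fatty acid enzymes, with -0.10 over all 12988 genes compared. All 9 fatty acid enzymes were again below 0, where 56.4% of all genes were, and 5 were at least 2-fold lower, where 12.5% were. These 5 were Acly, Scd1, Scd2, Fads1 and Fads2, while against CTRL they were Acly, Elovl6, Scd1, Scd2 and Fads2. Me1 did not differ from the median gene against CTRL2 beyond counting error (0.990, 0.858 to 1.14), and Fasn stood at 0.806 (0.770 to 0.843), with Acaca at 0.629 and Elovl6 at 0.553. Of the sterol branch 12 of 18 were below 0 by log2 fold. By the same measure 1, Tm7sf2, was at least 2-fold lower and 1, Ggps1, at least 2-fold higher, where 4.74% of all genes were higher. Hsd17b7 fell just short of 2-fold higher, with a log2 fold of 0.96. Scd1 had a scaled ratio of 0.166 (0.137 to 0.199) against CTRL2, Scd2 0.360 (0.346 to 0.374), Fads2 0.272 (0.244 to 0.303), Fads1 0.370 (0.337 to 0.406) and Srebf1 0.159 (0.119 to 0.210). The direction of these 5 was the same against either control, but both ratios rest on the same ETOP library and are not independent. Lss, by contrast, was at 1.24 (1.12 to 1.37), Insig1 at 1.39 (1.29 to 1.48), Acat2 at 1.21 (1.11 to 1.33) and Hsd17b7 at 2.03 (1.79 to 2.29) against CTRL2, above 1 where they were below 1 against CTRL. The squalene enzymes Fdft1 at 0.507 (0.457 to 0.563) and Sqle at 0.558 (0.515 to 0.605) stayed below 1, as did Mvk at 0.544 (0.449 to 0.656). Stard4 was at 0.867 (0.765 to 0.982) against CTRL2, far closer to 1 than against CTRL, and the interval of Cyp51 spanned 1 (0.975, 0.899 to 1.06). Ggps1 was at 2.43 (2.13 to 2.78) and Pmvk at 1.29 (1.12 to 1.47), above 1 with either control.

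**Figure D3:**
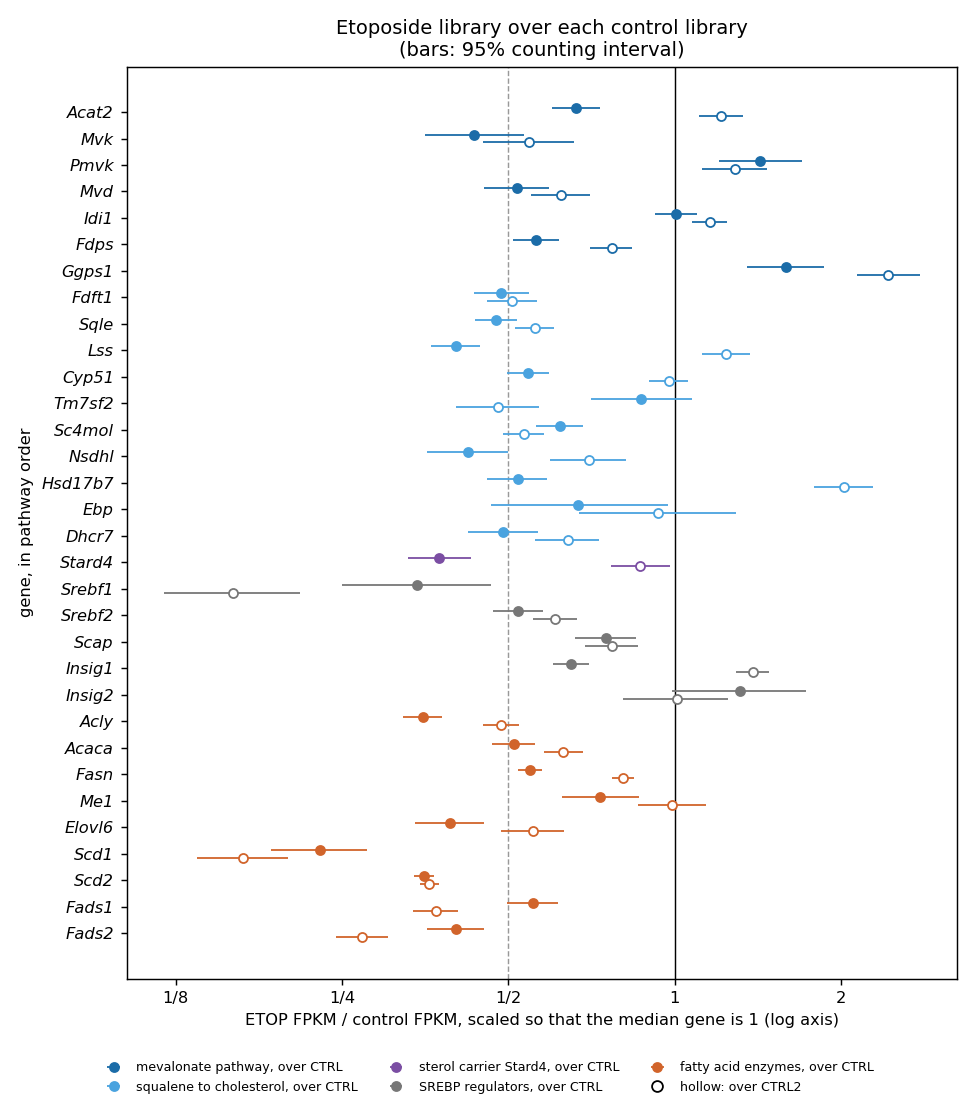
FPKM in ETOP over FPKM in CTRL (filled) and over CTRL2 (hollow), scaled so that the median gene is 1, for the 32 genes in pathway order, with 95% counting intervals (log axis). The fatty acid enzymes at the bottom lie at or left of 1 with both controls, while Acat2, Lss, Hsd17b7 and Insig1 lie left of 1 with CTRL and right of 1 with CTRL2.

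Other genes of lipid metabolism were read from lists, as log2 folds of ETOP over CTRL. Genes that process SREBP or turn over its regulators were not lower as a group, with 7 of 14 below 0, none past 1.5-fold and a median of -0.02. Genes of fatty acid oxidation, the opposite process, had a median of 0.11, with 2 of 10 below 0 and Acadm, a fatty acyl-CoA dehydrogenase, at 4.70 FPKM in ETOP, against 3.66 in CTRL (0.62). Isoprenoid and dolichol genes had a median of 0.08, with Coq2 at 0.65 and Fnta and Rabggtb at 0.64, sterol trafficking and storage genes -0.31, further fatty acid and lipid synthesis genes -0.39 (4 of 19 at least 1.5-fold lower, among them Acsl3 at -0.88), and NADPH and electron donor genes -0.35. Of 7 measured LXR and sterol efflux genes 4 were below 0, with a median of -0.21 and the exporter Abca1 at -0.97.

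Longer genes tended to lie lower in ETOP over CTRL, and also in CTRL2 over CTRL, where no title names a treatment. Over all genes with a locus of their own, the median log2 fold under 10 kb of span was 0.21 in ETOP over CTRL and 0.25 in CTRL2 over CTRL. Over 100 kb it was -0.49 and -0.07. For transcripts under 1.5 kb it was 0.38 and 0.49, and for those over 4 kb -0.26 and -0.12. The folds that follow are of ETOP over CTRL. Genes of the sterol branch spanned a median of 15.8 kb and those of the fatty acid branch 37.3 kb, where all genes compared spanned 25.8 kb. Nsdhl at 40.0 kb was the sterol gene with a locus of its own above that. The deposited loci of Fdft1 (55.3 kb) and Tm7sf2 are each shared with 1 other gene, so they may exceed the gene's own span. Among genes with a locus of their own spanning 10 to 25 kb, the median log2 fold was -0.86 over the 9 sterol genes, -0.84 over the 3 fatty acid genes and 0.11 over all 2349 genes. Over 100 kb it was -0.88 over the 3 fatty acid genes and -0.49 over all 1225 genes. Transcript length moved with fold as well. For transcripts over 4 kb the median was -1.24 over 3 sterol genes, -1.18 over 5 fatty acid genes and -0.26 over all 2928 genes, and at 1.5 to 2.5 kb it was -0.67 over 7 sterol genes and 0.10 over all 1948 genes. Among genes at 20 to 100 FPKM in CTRL the median was -0.88 over 10 sterol genes, -1.06 over 4 fatty acid genes and -0.08 over all 1116. In each of these classes of span, transcript length and level, each branch given had a lower median than all genes of the class. No sterol gene with a locus of its own spanned over 100 kb, and 1 fatty acid gene had a transcript of 1.5 to 2.5 kb. The part of length and level in the folds was not tested.

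**Figure D4:**
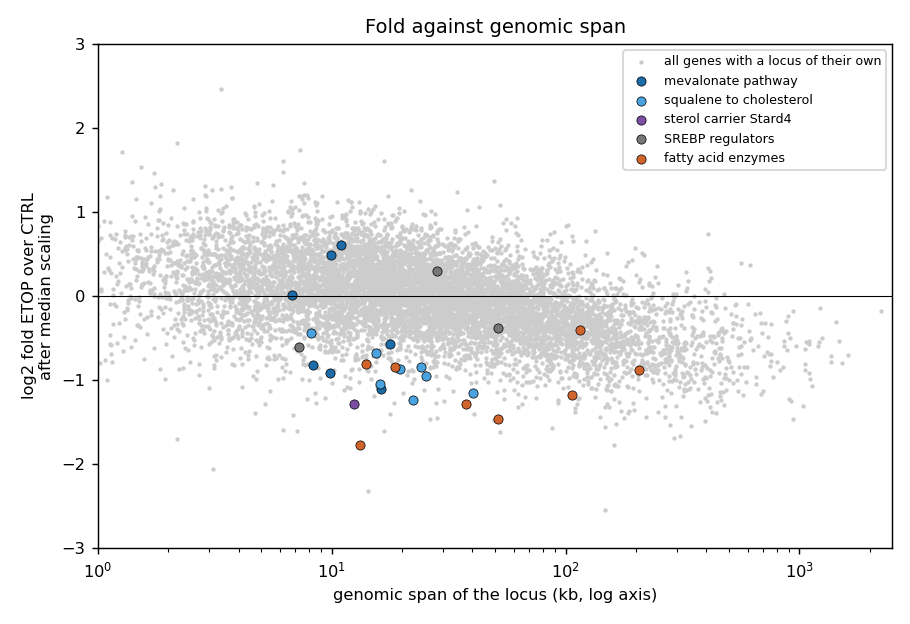
Log2 fold of ETOP over CTRL after median scaling against the genomic span of the locus in kb (log axis), for the sterol, regulator and fatty acid genes (coloured by role) and for all genes with a locus of their own (grey). Genes past the axis limits are not drawn, and most coloured points lie along the lower edge of the grey cloud at their span.

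CTRL2 against CTRL compares cultures whose titles name no treatment. Relative to the median gene the sterol branch was lower in CTRL2, while the fatty acid branch was mixed. Of 18 sterol genes 15 were below 0, where 43.9% of all 12987 genes were, 6 were at least 1.5-fold lower, against 6.6%, and 3 at least 2-fold lower, against 1.82%. Of all 32 genes 4 were at least 1.5-fold higher by log2 fold, against 16.5%, and none at least 2-fold higher, against 7.19%. The highest log2 fold, 0.97 for Srebf1, fell just short of 2-fold. As deposited, with no scaling, all of the 32 genes but Lss and Hsd17b7 had a higher FPKM in CTRL2. The scaled median log2 fold was -0.33 over the sterol branch, -0.24 over the fatty acid branch and 0.07 over all genes. Hsd17b7 had 11.8 FPKM in CTRL2, against 15.2 in CTRL, a scaled ratio of 0.264 (0.242 to 0.288). Lss had 26.1 FPKM in CTRL2, against 26.5 in CTRL, at 0.334 (0.314 to 0.356). Stard4 had 21.0 FPKM in CTRL2, against 16.02 in CTRL, at 0.446 (0.414 to 0.479). These 3 are low relative to the median gene, whose FPKM was 2.95 times as high in CTRL2. Insig1 had 85.6 FPKM in CTRL2, against 60.3 in CTRL, at 0.482 (0.458 to 0.507), and Acat2 and Cyp51 stood at 0.562 and 0.573. The other way went Srebf1, with 24.6 FPKM in CTRL2, against 3.77 in CTRL, at 2.21 (1.93 to 2.55), Tm7sf2 at 1.87 (1.64 to 2.15), Fads1 at 1.54 (1.45 to 1.63), Fads2 at 1.52 (1.43 to 1.61) and Scd1 at 1.42 (1.31 to 1.53). Insig2 at 1.34 (1.09 to 1.65) and Sc4mol at 1.20 (1.13 to 1.27) were above 1 too. Srebf2 was at 0.882 (0.832 to 0.936), so the SREBP genes differed in direction, and the level of Srebf2 over that of Srebf1 was 2.14 in CTRL2 and 5.36 in CTRL. Fasn at 0.699 and Acly at 0.742 were below 1 and Scd2 was level at 1.01 (0.985 to 1.03). Of the other lists, all 12 fatty acid oxidation genes were above 0, with a median of 0.81 and Hadhb at 1.65.

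NMDA against CTRL2 asks what receptor activation does within minutes, and no gene of the set moved by as much as 1.5-fold. Of all genes 1.29% were at least 1.5-fold lower and 0.645% at least 1.5-fold higher. At such shares few or none of 32 genes would pass, so this count is not particular to the set. Log2 folds ran from -0.08 for Insig2 to 0.20 for Stard4. The medians were 0.03 over the sterol branch, 0.06 over the fatty acid branch and -0.00132 over all 13028 genes compared. The authors' deposited table listed none of the 32, where it listed 0.292% of genes as lower and 0.192% as higher. That count too is not particular to the set. The largest values were small but beyond counting error. Stard4 had 24.9 FPKM in NMDA, against 21.0 in CTRL2, a scaled ratio of 1.16 (1.09 to 1.23). Idi1 had 95.9 FPKM in NMDA, against 81.8 in CTRL2, at 1.15 (1.10 to 1.20). Acaca had 40.8 FPKM in NMDA, against 34.8 in CTRL2, at 1.15 (1.11 to 1.19), and Fasn 104, against 89.2, at 1.14 (1.12 to 1.17). Counting intervals hold no spread between cultures, so whether they exceed that spread was not tested. In NMDA against CTRL2, 8 of 9 fatty acid enzymes were above 0, where 49.6% of all genes were, and of the sterol branch 12 of 18. Sqle was at 0.953 (0.922 to 0.986), Insig1 at 1.00 (0.960 to 1.05), Lss at 1.01 (0.951 to 1.07) and Scd1 at 1.01 (0.965 to 1.05). Set against CTRL in place of CTRL2, NMDA had 4 of 9 fatty acid enzymes and 5 of 18 sterol genes above 0, where 7138 of all 12870 genes were. At least 2-fold lower in that comparison were 3 of the 32 genes, where 1.9% of all genes were. These 3, Lss, Hsd17b7 and Insig1, are also at least 2-fold lower in CTRL2 against CTRL.

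Markers of glial cells, which are known to make much sterol and fatty acid, differed between the libraries too. Medians of log2 fold are scaled, while summed FPKM are as deposited and carry the difference in scale between libraries. In bulk RNA, fewer cells of a type and less RNA per cell cannot be told apart. In ETOP against CTRL, 8 of 9 measured astrocyte markers were below 0, where 52.2% of all genes were, at a median log2 fold of -0.58. The 10 listed summed to 56.5 FPKM in ETOP, against 109 in CTRL, and Slc1a2, the glial glutamate transporter, was at -0.92. The 3 measured oligodendrocyte lineage markers were below 0 (median -0.86), with a sum of 6.42 FPKM over the 12 listed in ETOP, against 22.4 in CTRL. Sox10 and Opalin were at 0 in ETOP, and Mag and Opalin in CTRL. Of 4 measured progenitor markers 3 were below 0, at a median of -0.73 (31.9 FPKM summed over the 9 listed in ETOP, against 89.8 in CTRL). Vascular and mural markers summed to 1.23 FPKM in ETOP, against 10.4 in CTRL, with Cldn5 at 0 in both and Kdr at 0 in ETOP. Of the 8 listed 2 were measured, both below 0. Microglial markers summed to 0.350 FPKM in ETOP, against 0.386 in CTRL, with C1qb at 0 in both. Of 12 neuron markers 10 were below 0, at a median of -0.29, from -1.16 for Rbfox3 to 0.27 for Stmn2. In CTRL2 against CTRL, 7282 of all 12987 genes compared were above 0. All 10 astrocyte markers were (median 1.24, 979 FPKM summed in CTRL2, against 109 in CTRL). So were all 10 measured oligodendrocyte lineage markers (median 1.21, 218 FPKM over the 12 listed, against 22.4). Progenitor markers had 7 of 8 above 0 (median 1.05), and vascular and mural markers 4 of 5 (median 0.77). Neuron markers had 4 of 12 above 0 and a median of -0.26, and summed to 2395 FPKM in CTRL2, against 812 in CTRL. Relative to the median gene, 22 of the 32 genes of the set were lower in CTRL2 than in CTRL, 15 of them sterol genes, and 10 were higher. In NMDA against CTRL2, astrocyte markers had a median of -0.11 (945 FPKM summed in NMDA, against 979 in CTRL2). The part of these markers in the results was not tested.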

How the data were processed

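Per the labels' protocols, libraries came from a total RNA kit and were read from both ends. Of the tools in the submitters' processing notes, given with no role or order, TopHat, Cuffdiff and Cufflinks 2.0.0 are ones that serve RNA-seq, and the build is mm9. FPKM values were taken as deposited by the authors. How the authors chose the genes of their comparison tables is not stated.

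The upper library of each ratio was multiplied by 1 factor so that the median FPKM ratio over genes at FPKM of at least 1 in both libraries is 1. Folds took a pseudocount of 1 FPKM and genes at FPKM of at least 1 in either library. Replicates were lacking, so no test was run. Fragment numbers came from FPKM, the longest coding transcript in GENCODE (mm9) and the step of 1 fragment in single-exon genes, and are approximate, as are the Clopper-Pearson 95% intervals made from them. Spans come from the deposited loci. Python 3.11.15, pandas 2.3.3 and scipy 1.17.1 were used, and the fold step was tested on simulated data.

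The genes and lists were chosen with earlier results of these data known. The rule for named genes took each gene of the set reaching 1 FPKM somewhere and up to 4 others a list, by the size of their fold. The promoters to print were to be those with TCACNCCAC, and the other 4 printed were chosen after the matches were seen. Proteins were not used here. A few symbols on the lists were not analysed here, and a few genes that the rule takes, with 1 list that rests on them, are not reported here. Alternatives were another control, pseudocount and filter, and no scaling.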

Additional observations from a re-analysis of the deposited data

How the results depend on the processing

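No paired analysis was possible because each group has 1 library. For the same reason no library could be left out. Without scaling, the ETOP over CTRL medians were -1.21 for the sterol and -1.49 for the fatty acid branch, against -0.32 over all genes. In that setting 22 genes of the set were at least 2-fold lower. The CTRL2 over CTRL medians took the opposite sign, at 1.16 and 1.25, against 1.32 over all genes. There 23 genes of the set were at least 2-fold higher and 0 lower, with Stard4 at 0.37 and Insig1 at 0.50. The median over all genes was itself past 2-fold higher, so the 23 are not a result about the set. Shares over all genes were not counted without scaling. The change of sign follows from the FPKM scales of the libraries. Against the other control, ETOP gave -0.29 for the sterol branch, a sterol minus fatty acid difference of 0.74 and Lss at 0.30, the opposite sign. In that comparison 7 genes were at least 2-fold lower, against 12.5% of all genes, and 1 at least 2-fold higher, against 4.74%. NMDA against CTRL gave -0.31 for the sterol branch, -0.053 for the fatty acid branch, the opposite sign, and a difference of -0.26. At least 2-fold lower there were 3 genes, against 1.9% of all genes. The cause was not tested. A pseudocount of 0.1 gave 1 gene at least 2-fold higher in CTRL2 over CTRL, with the share over all genes not counted. Filters of FPKM above 0 or at least 5 moved no median past the median counting limits of its genes, and no count by over 1.5 times. Depth limits Ebp, Srebf1 and Insig2 most.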
